A study of Arabidopsis thaliana with 24 samples.

Results

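The genes described here are 10 amino acid transporters of Arabidopsis thaliana, taken by locus from a fixed list: LHT1 (AT5G40780), AAP1 (AT1G58360), AAP3 (AT1G77380), AAP6 (AT5G49630), CAT2 (AT1G58030), PROT2 (AT3G55740), UMAMIT11 (AT2G40900), UMAMIT14 (AT2G39510), UMAMIT18 (AT1G44800) and UMAMIT29 (AT4G01430). All 10 had a value in both tissues, among 20336 genes in roots, 19495 in shoots and 21245 in either. RNA was sequenced from 24 libraries that fall into 8 groups of 3, by tissue, treatment and day. Wild-type Col-0 seedlings, 5 days old, were moved to agar plates (1% agar with 0.1X MS salts) that held 2 mM TiO2 (Ti) or none (Ctrl), and roots (R) and shoots (S) were taken after 3 days (3D) or 10 days (10D), so that Ti-R-10D stands for Ti-treated roots at 10 days. All plants were grown at 22 °C under 16 h of light and 8 h of dark, and each sample was a pool of 160 seedlings, which limits a group to an average over many plants.

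The values are log2 CPM (read counts scaled to a common library total), and they are given below as CPM. The 3 columns of each group held the same value for every gene, so that each gene had 1 fitted value per group, and no spread between replicates, no standard deviation and no test could be had. A gene was called higher or lower in Ti-treated plants where its log2F.C. (Ti minus Ctrl of the same tissue and day) went beyond 0.2. This is a limit of size and not a test. The study's own test of its replicates found only a few genes at 3 days in either tissue, and none of the 10 was among them. The errors printed beside a log2F.C. are counting errors alone, computed for a depth at which 1 CPM equals about 21.5 reads per library in roots and 22.6 in shoots. This is the depth that the lowest values of the tables give if these stand for a prior count of 0.125 reads. At that depth 3 reads over a group are 0.0466 CPM in roots and 0.0442 CPM in shoots, and every value of the 10 genes lay above this floor. The tables of roots and shoots were normalized separately, so their levels are only set side by side.

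The labelled tissues carried their marker genes: 5 green tissue genes summed to 42900 to 58000 CPM in the shoot groups and to 511 to 824 CPM in the root groups, and 5 root genes summed to 11800 to 15500 CPM in roots. In shoots 3 of these 5 root genes were in the table, with 430.0 to 737 CPM in sum, nearly all of it from PYK10, while the root hair genes EXPA7 and COBL9 were not listed. Over all genes the median log2F.C. lay between -0.00 and 0.02 in the 4 comparisons of Ti with Ctrl, and the robust standard deviation was 0.11 and 0.15 at 3 days (roots and shoots) and 0.27 in both tissues at 10 days. In bulk tissue, fewer cells of a type and less RNA per cell cannot be told apart.

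Plants take up amino acids from the soil and move organic nitrogen between organs mostly as amino acids, loaded into and out of xylem and phloem. Importers of the AAP, LHT and PROT families couple uptake across the plasma membrane to protons, and CAT proteins carry mainly cationic amino acids, with CAT2 found at the vacuole membrane. The UMAMIT proteins are facilitators that let amino acids leave cells, for example towards the phloem, the root tip or the developing seed. Roots and shoots of seedlings were sampled here, not seeds, where several of these genes are also known to act.

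The 10 loci are spread over 5 chromosomes, and the highest identities between their proteins lay within families. By the TAIR10.1 RefSeq annotation, AAP1 and AAP6 shared 72.4% of aligned residues, AAP3 shared 57.7% with AAP1 and 58.5% with AAP6, and UMAMIT14 shared 51.6% with UMAMIT18. UMAMIT11 stood at 44.6% and 42.7% identity to these genes, and UMAMIT29 at 29.6% to 30.7% to the other UMAMIT members. That is below the 31.8% to 33.7% that LHT1, of another family, shared with the AAP members. For none of the 10 was another transcript found with at least 95% identity over at least 80% of its length. AAP3 overlaps the gene AT1G77370 on the opposite strand by 15 bases, and the other 9 overlap no annotated gene.

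The 250 bases before the annotated start are printed for 4 of the genes with the largest Ti differences in roots at 10 days, since these are among the genes the results turn on. Those of UMAMIT14 (chr2:16493344-16493593, minus strand) and CAT2 (chr1:21468506-21468755, minus strand) belong to genes that were higher, and those of LHT1 (chr5:16323317-16323566, plus strand) and AAP6 (chr5:20146691-20146940, minus strand) to genes that were lower. Sequences are from RefSeq TAIR10.1 and read 5' to 3' on the strand of the gene. Capitals mark 4 words on either strand: ACTCAT (reverse ATGAGT, the proline-responsive word of the PRODH1 promoter), ACGTG (reverse CACGT, the core of abscisic acid-responsive elements), TTGAC (reverse GTCAA, the core of the W-box) and AAAAG (reverse CTTTT, the core bound by Dof factors).
UMAMIT14: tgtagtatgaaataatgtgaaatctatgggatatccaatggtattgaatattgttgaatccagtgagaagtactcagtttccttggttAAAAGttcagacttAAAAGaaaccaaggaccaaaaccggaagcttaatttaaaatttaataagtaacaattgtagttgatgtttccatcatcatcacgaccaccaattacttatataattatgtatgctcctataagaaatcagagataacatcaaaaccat
CAT2: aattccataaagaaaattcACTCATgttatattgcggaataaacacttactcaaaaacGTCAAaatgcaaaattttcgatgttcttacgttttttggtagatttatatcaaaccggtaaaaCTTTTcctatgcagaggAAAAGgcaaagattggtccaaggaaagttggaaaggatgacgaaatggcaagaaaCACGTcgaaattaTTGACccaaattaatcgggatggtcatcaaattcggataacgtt
LHT1: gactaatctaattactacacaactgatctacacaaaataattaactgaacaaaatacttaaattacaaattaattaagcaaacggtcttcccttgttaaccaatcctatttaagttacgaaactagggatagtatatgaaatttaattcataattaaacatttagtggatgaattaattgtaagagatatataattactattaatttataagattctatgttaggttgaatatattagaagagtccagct
AAP6: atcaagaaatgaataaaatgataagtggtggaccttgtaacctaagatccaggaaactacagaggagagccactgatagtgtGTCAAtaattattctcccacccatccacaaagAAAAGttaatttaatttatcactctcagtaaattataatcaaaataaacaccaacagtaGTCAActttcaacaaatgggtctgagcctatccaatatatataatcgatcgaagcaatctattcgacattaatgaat

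The word ACTCAT stood in 12.3% of 27443 promoters of this length and in 3 of the 9 transporter promoters searched (AAP3, CAT2 and UMAMIT18). ACGTG stood in 22.9% of promoters and, of the 9, in CAT2 alone. TTGAC stood in 44.9% of promoters and in 4 of the 9 (AAP3, AAP6, CAT2 and PROT2), and AAAAG in 81.3% and in 8 of the 9, with LHT1 as the exception. In the 4 printed promoters no match overlapped another, CAT2 held all 4 words and LHT1 none. UMAMIT14, the gene with the largest difference in Ti-treated roots, held only AAAAG, which most promoters have. A match is only a run of letters, and nothing on a factor's binding was measured.

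Per kilobase of transcript, the efflux facilitators UMAMIT18 and UMAMIT11 and the vacuolar carrier CAT2 were the highest of the 10 in all 4 root groups. UMAMIT18 ranged from 95 to 112 CPM per kb, UMAMIT11 from 74.9 to 80 and CAT2 from 60.9 to 109. UMAMIT11 and CAT2 were not apart beyond 0.2 (log2) in Ctrl-R-10D, at 74.9 and 74.0 CPM per kb. The next in Ctrl-R-10D were AAP3 at 30.6 and LHT1 at 20.5 CPM per kb, then AAP6 (13.7), PROT2 (11.5), UMAMIT29 (8.67) and AAP1 (8.19), and UMAMIT14 was lowest at 1.25. Of these neighbours UMAMIT29 and AAP1 also lay within 0.2 of each other. In Ctrl-R-3D the order below the top 3 was different, with LHT1 next at 28.2 CPM per kb, AAP1 at 13.6, PROT2 at 11.2, UMAMIT14 at 8.34, AAP3 at 7.77, AAP6 at 5.74 and UMAMIT29 at 5.02, where UMAMIT14 and AAP3, and likewise AAP6 and UMAMIT29, lay within 0.2.

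In shoots the importer AAP1 was first in every group, with 31.3 to 58.0 CPM per kb, followed by CAT2 with 27.1 to 34.2, though in Ti-S-3D the genes lay within 0.2 (log2) of each other, at 31.3 and 30.1 CPM per kb. UMAMIT18 and UMAMIT11, which led in roots, held 6.41 to 10.1 and 3.70 to 5.0 CPM per kb in shoots. UMAMIT14 was lowest of the 10 in every shoot group, with 0.163 to 0.741 CPM per kb. The transporters thus had a different order in roots and in shoots, which holds within each table and does not rest on a comparison between them.

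**Figure D1:**
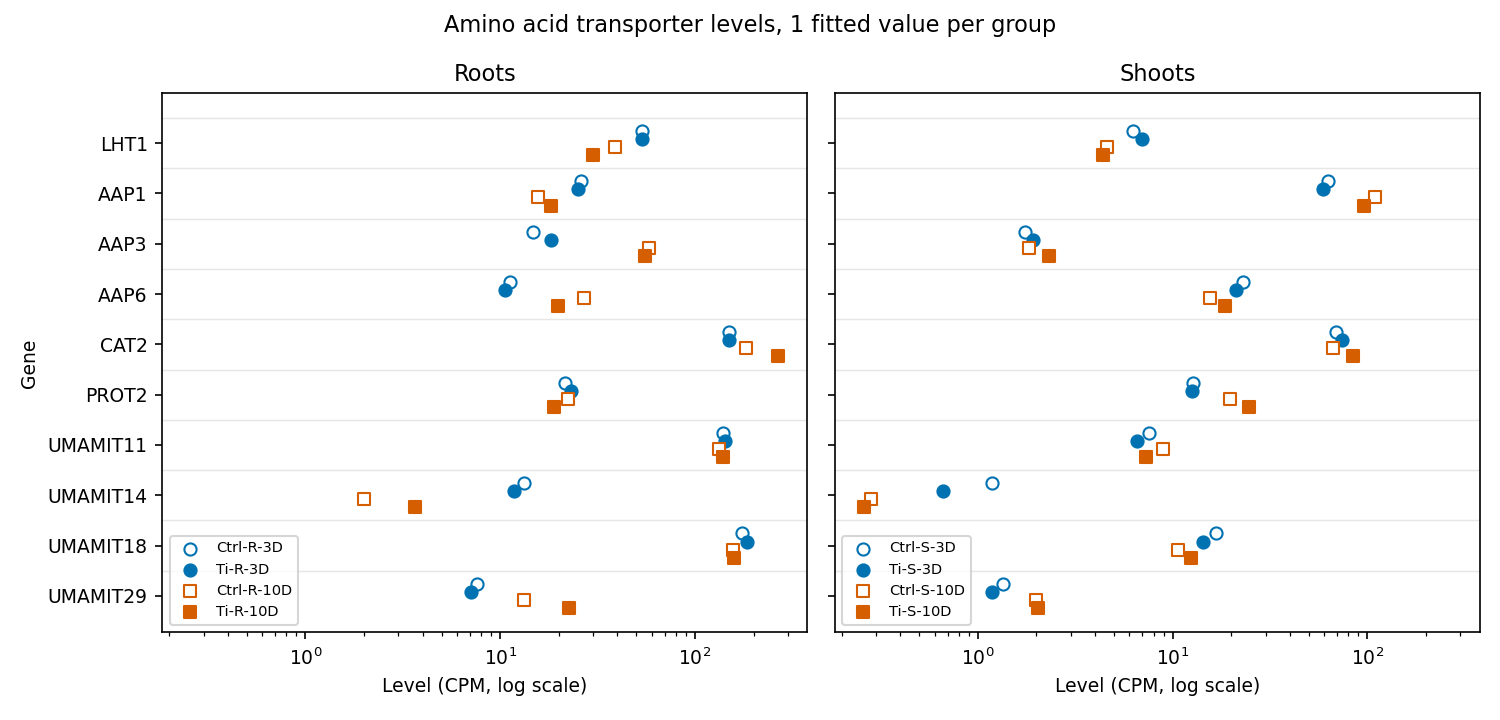
Level of each transporter in CPM (log axis) in roots (left) and shoots (right), with 1 point for the fitted value of each group: blue circles for 3 days, orange squares for 10 days, open for Ctrl and filled for Ti. UMAMIT14 spans the widest range in roots (1.99 to 13.3 CPM) and UMAMIT11 the narrowest (133 to 143 CPM).

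The comparison of Ti with Ctrl asks how the seedlings' transcripts differed when TiO2 was in the medium. In roots at 3 days, 1 of the 10 transporters was higher and 0 were lower, where 8.51% of all genes were higher and 8.38% lower. At 10 days in roots 4 were higher (CAT2, UMAMIT14, UMAMIT29 and AAP1) and 3 were lower (LHT1, AAP6 and PROT2), against 23.7% and 22.3% of all genes. In shoots at 3 days 0 were higher and 2 were lower (UMAMIT14 and UMAMIT18), against 13.1% and 12.0% of all genes. In shoots at 10 days 5 were higher (CAT2, PROT2, AAP3, AAP6 and UMAMIT18) and 1 was lower (UMAMIT11), against 24.2% and 21.7%. The median log2F.C. of the 10 was -0.00 and 0.05 in roots at 3 and 10 days, and -0.10 and 0.14 in shoots, so that the 10 did not move one way as a group. In roots at 10 days they split within families as well, with AAP1 higher and AAP6 lower, and with 2 of the 4 UMAMIT genes within the limit.

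**Figure D2:**
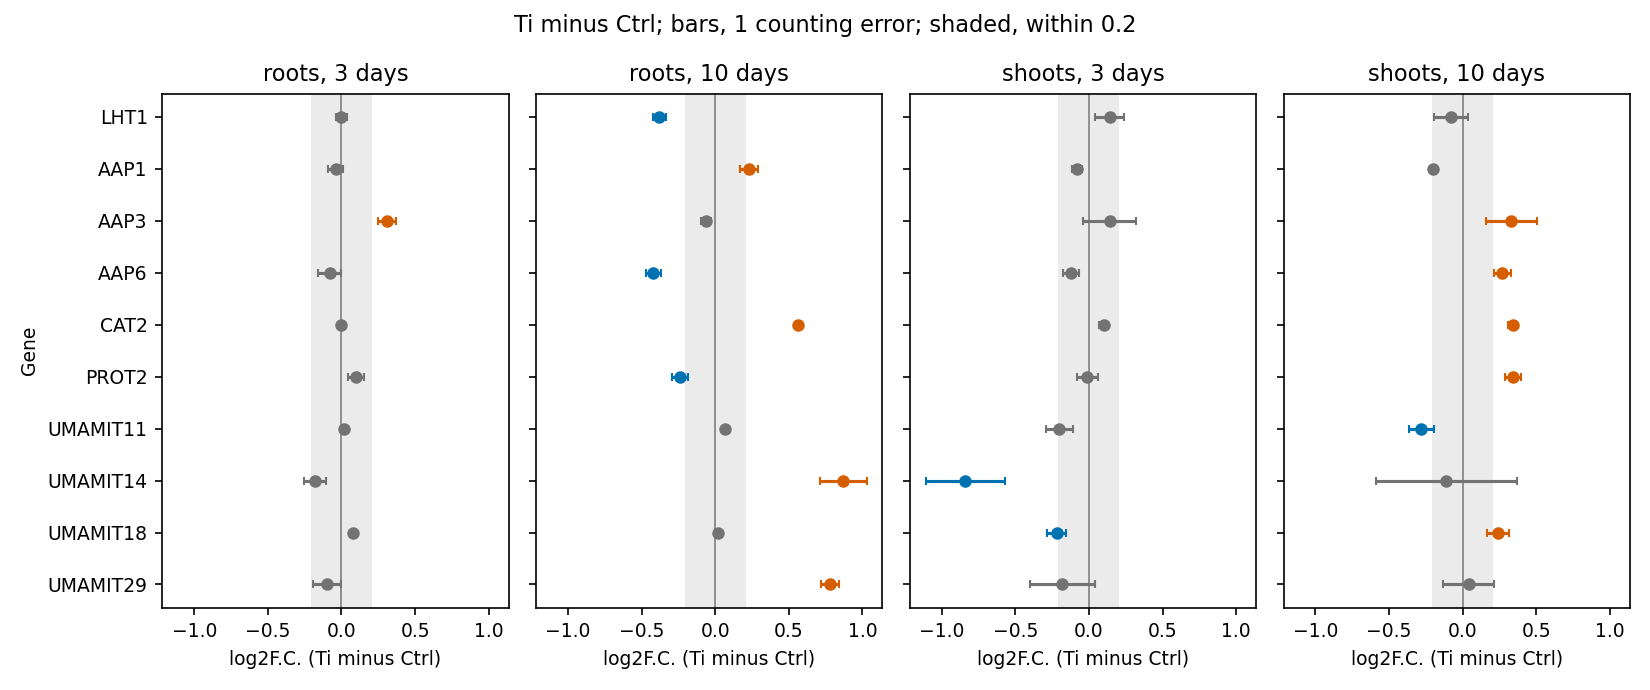
log2F.C. (Ti minus Ctrl) of each transporter in the 4 comparisons, with bars of 1 counting error on either side, which hold no variation between plants or samples. Orange points are higher and blue points lower beyond 0.2 (shaded within), and the points with the largest differences are UMAMIT14 (0.87) and UMAMIT29 (0.78) in roots at 10 days and UMAMIT14 (-0.84) in shoots at 3 days.

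Of the importers, LHT1, a broad amino acid carrier of the root surface and of leaf cells, had 53.6 and 53.4 CPM in roots at 3 days (Ctrl and Ti) and 39.0 and 29.9 CPM in roots at 10 days. It was level with Ctrl at 3 days (log2F.C. -0.00) and lower in Ti-treated roots at 10 days, with a log2F.C. of -0.38 ± 0.044 (counting error). In that comparison 9.66% of all genes were as low or lower. Its levels in shoots were 6.3 and 6.95 CPM at 3 days (Ctrl and Ti) and 4.63 and 4.38 CPM at 10 days, with both log2F.C. within 0.2 (0.14 and -0.08). Ti-R-10D thus held the lowest of the 4 root values of LHT1.

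AAP1, which takes up neutral and acidic amino acids into root cells and is also known from seeds, had 25.9 and 25.1 CPM in roots at 3 days (Ctrl and Ti) and 15.6 and 18.3 CPM in roots at 10 days. Ti-treated roots were just past the limit at 10 days, with a log2F.C. of 0.23 ± 0.062. The shoots held 63.1 and 59.5 CPM at 3 days and 110 and 96.0 CPM at 10 days. The log2F.C. in shoots at 10 days, -0.20 ± 0.024, lay just within the limit. Scaling the groups to 1 common median put it at -0.22 and so past the limit.

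AAP3, a carrier known from the vascular tissue of roots that accepts basic amino acids, was the only one of the 10 beyond the limit in roots at 3 days, with 14.7 CPM (Ctrl-R-3D) and 18.3 CPM (Ti-R-3D) (log2F.C. 0.31 ± 0.063). At 10 days it had 57.8 CPM (Ctrl-R-10D) and 55.4 CPM (Ti-R-10D), a log2F.C. of -0.06 ± 0.034. The overlapping gene AT1G77370 had 55.7 and 54.1 CPM in roots at 3 days (log2F.C. -0.04). In shoots AAP3 was low, at 1.74 and 1.92 CPM at 3 days and 1.84 and 2.31 CPM at 10 days. The log2F.C. of 0.33 ± 0.173 in shoots at 10 days was therefore past the limit by less than its counting error. AT1G77370 had a log2F.C. of 0.34 in that comparison.

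AAP6, a high-affinity carrier known from xylem parenchyma, had 11.2 and 10.6 CPM in roots at 3 days (Ctrl and Ti) and 26.8 and 19.9 CPM in roots at 10 days. It was lower in Ti-treated roots at 10 days, with a log2F.C. of -0.42 ± 0.053, and 7.93% of all genes were as low or lower. In shoots it went from 22.9 to 21.1 CPM (Ctrl to Ti) at 3 days and from 15.5 to 18.6 CPM at 10 days, where its log2F.C. was 0.27 ± 0.06. The direction in shoots at 10 days was thus opposite to that in roots. The xylem markers XCP1, XCP2 and IRX3 summed to 205 CPM (Ctrl-R-10D) and 229 CPM (Ti-R-10D), with 3 of 3 within the limit. The part of xylem tissue in the lower AAP6 of these roots was not tested. In shoots at 10 days 2 of these 3 markers were higher, with sums of 42.3 and 48.3 CPM (Ctrl and Ti), and 2 of 5 green tissue genes were higher, with sums of 42900 and 48400 CPM. The part of either in the higher AAP6, AAP3, CAT2, PROT2 and UMAMIT18 of Ti-treated shoots was not tested.

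PROT2, which carries proline and glycine betaine, had 21.6 and 23.1 CPM in roots at 3 days (Ctrl and Ti) and 22.2 and 18.8 CPM in roots at 10 days. Its log2F.C. in roots at 10 days was -0.24 ± 0.056. In shoots it held 12.7 and 12.6 CPM at 3 days and 19.6 and 24.8 CPM at 10 days (log2F.C. 0.34 ± 0.053), again opposite in sign to roots. Of 5 genes of proline metabolism, PRODH1, which degrades proline in mitochondria, was lower in Ti-treated plants at 10 days in both tissues, from 761 to 395 CPM in roots and from 667 to 393 CPM in shoots. PRODH2 was lower as well (log2F.C. -0.73 and -0.77). P5CS1, which makes proline under stress, had a log2F.C. of 0.21 in roots and -0.21 in shoots. At 10 days 1 of the 5 was thus higher and 2 were lower in roots, against 23.7% and 22.3% of all genes. In shoots 0 were higher and 3 lower, against 24.2% and 21.7%.

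CAT2 was higher in Ti-treated plants at 10 days in both tissues. It had 150 CPM in roots at 3 days with and without TiO2, 182 CPM (Ctrl-R-10D) and 267 CPM (Ti-R-10D), and its log2F.C. at 10 days in roots was 0.56 ± 0.017. In that comparison 5.03% of all genes were as high or higher. In shoots it had 69.0 and 74.0 CPM at 3 days and 66.5 and 83.9 CPM at 10 days (log2F.C. 0.34 ± 0.029). Ti-R-10D was the highest of the 4 root values and Ti-S-10D the highest of the 4 shoot values, and per kilobase CAT2 in Ti-R-10D, at 109 CPM per kb, lay within 0.2 (log2) of UMAMIT18 at 96.3. The other CAT genes with a value numbered 8 in roots at 10 days, of which 0 were higher and 1 was lower (median log2F.C. 0.12). In shoots at 10 days 2 of these 8 were higher and 3 were lower (median 0.04).

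Of the efflux facilitators, UMAMIT14, known from the phloem of roots and from seeds, had the largest Ti differences of the 10. Its levels in roots were 13.3 and 11.8 CPM in roots at 3 days (Ctrl and Ti) and 1.99 and 3.65 CPM in roots at 10 days, so that Ti-treated roots were 0.87 ± 0.158 higher on the log2 scale at 10 days. In that comparison 2.11% of all genes were as high or higher. In shoots the order was the reverse at 3 days, with 1.18 CPM in Ctrl-S-3D and 0.659 in Ti-S-3D (log2F.C. -0.84 ± 0.269). This shoot value rests on about 27 and 15 reads per library. With 1 CPM added before the log it became -0.40, and at 10 days in shoots, with about 6 reads per library in either group (0.282 and 0.261 CPM), no difference could be told at this depth.

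UMAMIT29, another facilitator known from seeds, had 7.64 and 7.12 CPM in roots at 3 days (Ctrl and Ti) and 13.2 and 22.6 CPM in roots at 10 days. Its log2F.C. in roots at 10 days was 0.78 ± 0.062, and 2.72% of all genes were as high or higher. Shoots held 1.34 and 1.18 CPM at 3 days and 1.98 and 2.04 CPM at 10 days, with both log2F.C. within 0.2. UMAMIT29 lies on chromosome 4 near UMAMIT31 (AT4G01440) and UMAMIT30 (AT4G01450), which in roots at 10 days went from 44.8 to 45.7 CPM (log2F.C. 0.03) and from 86.2 to 111 CPM (0.36). Of these 3 UMAMIT genes, UMAMIT29 thus had the largest log2F.C. and UMAMIT31 was within the limit.

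Phloem markers were higher in Ti-treated roots at 10 days, as were UMAMIT14 and UMAMIT29, while UMAMIT11 and UMAMIT18 lay within the limit. At 10 days 4 of 4 markers were higher in Ti-treated roots, where 23.7% of all genes were higher. They were the sucrose carrier SUC2 (73.0 to 121 CPM), the regulator APL (log2F.C. 0.45) and the sugar efflux carriers SWEET11 and SWEET12 (1.08 and 1.15). Their sum went from 124 to 216 CPM. At 3 days in roots 0 of the 4 markers were higher and 1 was lower, with sums of 93.3 and 87.0 CPM. From 3 to 10 days in Ctrl roots the marker sum went from 93.3 to 124 CPM. Over the same days UMAMIT14 went from 13.3 to 1.99 CPM and UMAMIT29 from 7.64 to 13.2 CPM. Green tissue genes summed to 673 CPM (Ctrl-R-10D) and 824 CPM (Ti-R-10D), with 2 of 5 higher, and to 511 and 658 CPM at 3 days, with 4 of 5 higher. In shoots at 3 days 2 of the 4 phloem markers were higher and 0 were lower. There UMAMIT14 was lower (log2F.C. -0.84) and UMAMIT29 was within the limit (-0.18). In shoots at 10 days 0 of the 4 were higher and 1 was lower, with UMAMIT14 (-0.11) and UMAMIT29 (0.04) within the limit. The part of phloem or green tissue in the higher CAT2, UMAMIT14, UMAMIT29 and AAP1 of Ti-treated roots was not tested.

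UMAMIT11 and UMAMIT18, the facilitators with the highest levels in roots, differed little there. UMAMIT11 had 140 and 143 CPM in roots at 3 days (Ctrl and Ti) and 133 and 140 CPM in roots at 10 days (log2F.C. 0.02 and 0.07). UMAMIT18, also named SIAR1, had 175, 185, 157 and 159 CPM in the same order (log2F.C. 0.08 and 0.02), so that all 4 values lay close together for each gene. In shoots UMAMIT11 was lower in Ti-treated plants at 10 days, with 8.91 and 7.33 CPM (log2F.C. -0.28 ± 0.087), after 7.56 and 6.59 CPM at 3 days, where its log2F.C. of -0.20 lay just within the limit. UMAMIT18 had 16.7 and 14.3 CPM at 3 days (log2F.C. -0.22 ± 0.063) and 10.6 and 12.5 CPM at 10 days (0.24 ± 0.073), so its sign differed between the days.

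The root genes with a value in shoots were lower in Ti-treated shoots at 3 days, as were UMAMIT14 and UMAMIT18. Of 3 such genes 3 were lower, PYK10 just past the limit (728 to 633 CPM), THAS1 from 1.4 to 0.763 CPM and TPS-CIN from 8.16 to 1.24 CPM, and their sum went from 737 to 635 CPM. At 10 days 2 of 3 were lower, and the sums were 431 and 430.0 CPM. In shoots at 3 days 3 of the 10 transporters had a log2F.C. above 0, and the rest lay below 0. Those above were LHT1 and AAP3 (both 0.14) and CAT2 (0.1), all within the limit. The part of root genes in the shoot samples was not tested.

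The other amino acid transporters are given beside the 10, and the difference between the lists was not tested. The reference names 67 further genes of the AAP, LHT, PROT, CAT, UMAMIT and GDU families with ANT1 and BAT1, of which 54 had a value in roots and 53 in shoots. Of those with a root value, 5 lay above and 4 below the limit at 3 days, against 8.51% and 8.38% of all genes. At 10 days 13 lay above and 15 below it, against 23.7% and 22.3%. Their median log2F.C. was 0.01 at 3 days and 0.06 at 10 days. Of those with a shoot value, 8 were above and 14 below the limit at 3 days, against 13.1% and 12.0% of all genes. At 10 days 11 were above and 17 below it, against 24.2% and 21.7%. Their medians were -0.08 at 3 days and 0.00 at 10 days. Of the 10 transporters, 5 were above and 1 below the limit in shoots at 10 days, with a median of 0.14. The family members thus went in both directions in every comparison, as all genes did. Whether their shares differed from those of all genes was not tested.

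Only those of these genes whose Ti and Ctrl values averaged 1 CPM or more are ranked here, and some genes below that went further. Among those ranked AAP4, a relative of AAP3 and AAP6, was lowest in Ti-treated roots at 10 days relative to Ctrl, from 113 to 55.4 CPM (log2F.C. -1.03 ± 0.029). UMAMIT26 was next (-0.79), and AAP7 (0.87) and UMAMIT3 (0.65) were highest. In roots at 3 days the extremes were GDU5 (0.64) and PROT3 (0.63) on the upper side, and UMAMIT36 (-0.50) and UMAMIT28 (-0.40) on the lower. In shoots at 3 days UMAMIT42 (0.37) and BAT1 (0.31) were highest and UMAMIT33 (-1.48) and UMAMIT36 (-0.66) lowest. UMAMIT33 went from 9.73 to 3.49 CPM, further below Ctrl than any of the 10 in shoots of either day. In shoots at 10 days the extremes were UMAMIT6 (0.77) and UMAMIT5 (0.53, also named WAT1), and UMAMIT8 (-0.85) and UMAMIT22 (-0.82).

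**Figure D3:**
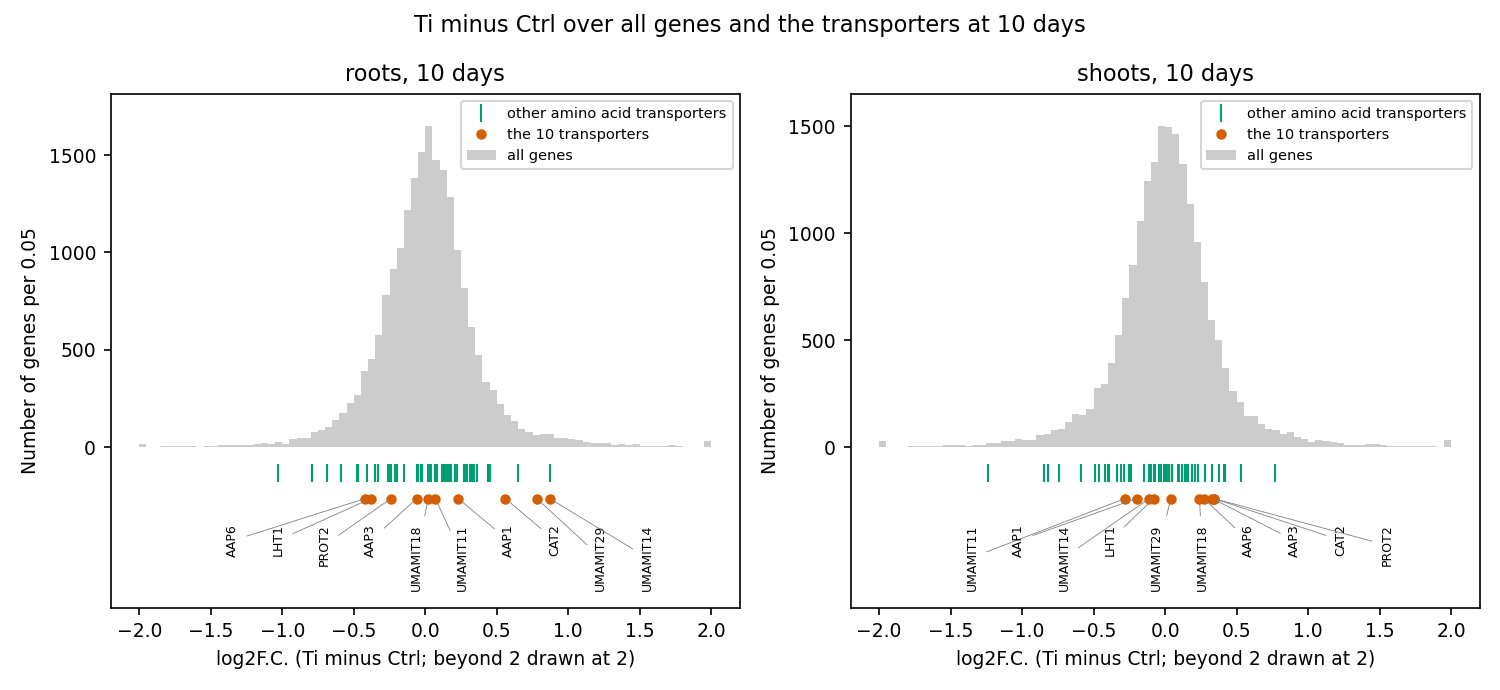
Number of genes per 0.05 of log2F.C. (Ti minus Ctrl) in roots and shoots at 10 days, with the other amino acid transporters as green ticks and the 10 transporters as labelled orange points below the axis. Values beyond 2 are drawn at 2, and UMAMIT14 and UMAMIT29 lie in the upper tail of the root genes, with 2.11% and 2.72% of all genes as high or higher.

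The comparison of 10 days with 3 days in Ctrl plants shows how the transporters differed with age on the same medium. A gene was called beyond a log2 difference of 1 here. In Ctrl roots 2 of the 10 were higher at 10 days (AAP3 and AAP6) and 1 was lower (UMAMIT14), against 4.8% and 4.44% of all genes. AAP3 went from 14.7 to 57.8 CPM, a log2 difference of 1.98 ± 0.052, and AAP6 from 11.2 to 26.8 CPM (1.26 ± 0.064). UMAMIT14 went from 13.3 to 1.99 CPM (-2.74 ± 0.137). AAP1 and UMAMIT29, at -0.73 and 0.79, were within the limit, as were the other 5 genes.

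In Ctrl shoots 0 of the 10 were higher and 1, UMAMIT14, was lower, against 4.74% and 7.89% of all genes. UMAMIT14 went from 1.18 to 0.282 CPM (-2.07 ± 0.367), which became -0.77 and within the limit with 1 CPM added. AAP1 and PROT2 had log2 differences of 0.80 and 0.63 in Ctrl shoots, both within the limit. UMAMIT14 was thus the 1 transporter lower beyond the limit at 10 days in both tissues.

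In Ti-treated roots AAP3 was higher at 10 days than at 3 days by 1.60 ± 0.048 on the log2 scale, AAP6 by 0.92 ± 0.068, UMAMIT29 by 1.67 ± 0.077 and CAT2 by 0.83 ± 0.018. UMAMIT14 had a log2 difference of -1.69 ± 0.108 and LHT1 of -0.84 ± 0.041. The time course in Ti-treated roots and the Ti comparison at 10 days share the Ti-R-10D libraries, as those of Ctrl share Ctrl-R-10D, so these values are not separate evidence. The log2F.C. at 10 days minus that at 3 days in roots was 1.05 for UMAMIT14, 0.88 for UMAMIT29 and 0.55 for CAT2, and -0.38 for LHT1 and AAP3. Whether the Ti difference itself differed between days was not tested.

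**Figure D4:**
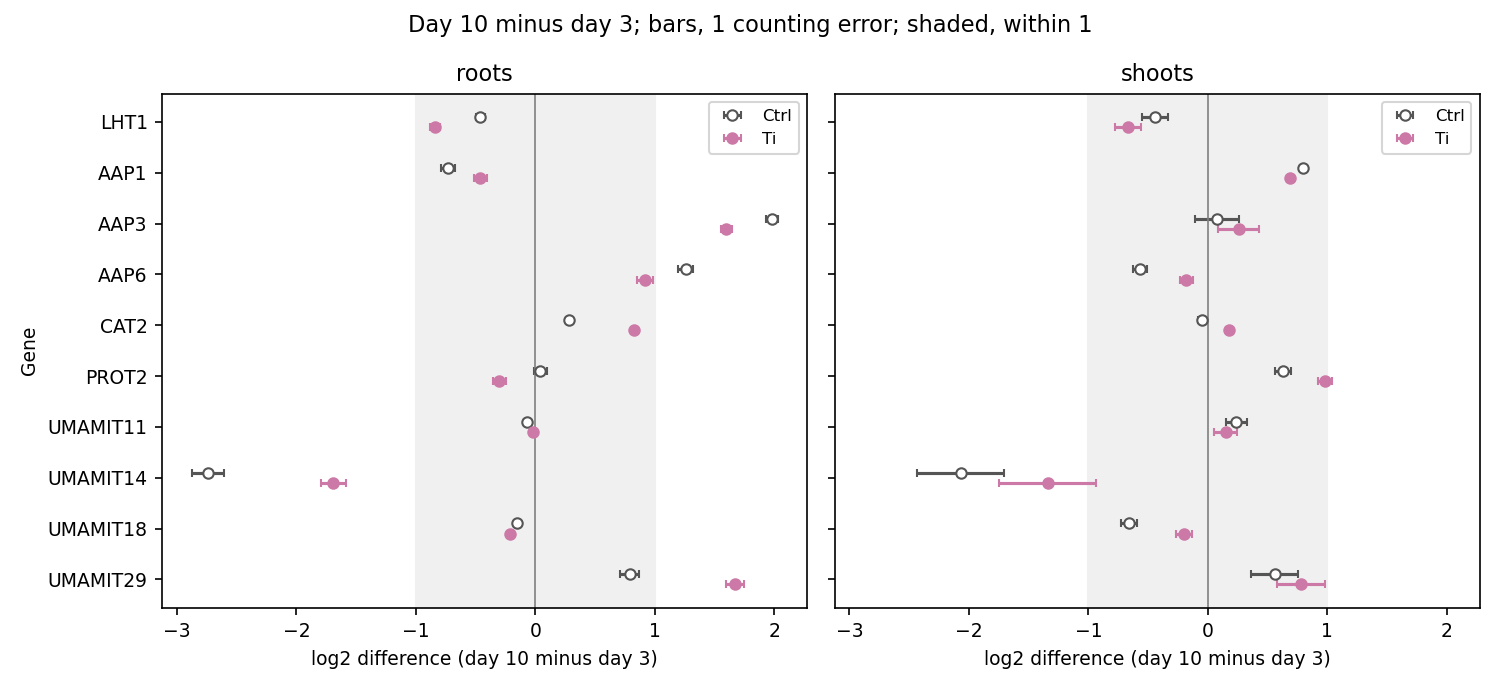
Day 10 minus day 3 (log2) for each transporter in Ctrl (open) and Ti (filled) plants, in roots (left) and shoots (right), with bars of 1 counting error on either side and values within 1 shaded. UMAMIT14 is lower at 10 days in all 4 pairs of groups, and AAP3 in roots is higher in both Ctrl (1.98) and Ti (1.60).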

How the data were processed

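RNA of 24 root and shoot samples was measured by RNA-seq. Per the submitters' processing notes and the study's methods, reads were checked with FastQC 0.11.9, trimmed with Trim Galore 0.6.6 and assigned to Araport11 transcripts with kallisto 0.44.0. Gene counts from tximport were then filtered on low CPM (limit not given in the sources used here) and fitted with edgeR, each tissue on its own. The deposited values are log2 CPM, normalized by the authors within a tissue, and are identical in the 3 columns of each group. A limma fit, leaving out replicates and the replicate block could therefore not be run, and no p-value was computed.

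CPM is 2 to the power of the deposited value, and log2F.C. is Ti minus Ctrl. Counting errors are Poisson errors over 3 libraries per group at the depth given above. The calling of changed genes was also run on simulated counts with planted changes for each comparison, as a check of the code alone. That run cannot show how reliable the calls in these data are, because the variation between samples is unknown. Lengths, coordinates and promoters came from the TAIR10.1 RefSeq genome, not from Araport11, and 1 promoter is not reported here. Near-identical copies were sought with blastn 2.17.0+, and proteins were aligned with Biopython 1.88 (Python 3.11.15, numpy 2.4.6, pandas 2.3.3, matplotlib 3.10.9).

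The members and lists were chosen with earlier results of these data known. All 10 transporters are named. Of the other transporters, the 2 largest rises and falls per comparison are named if their Ti and Ctrl values averaged 1 CPM or more. Alternatives were quantile normalization, scaling to 1 median, 1 CPM added before the log, a mean of at least 1 CPM, and a limit of 0.5.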

Additional observations from a re-analysis of the deposited data

Results flagged for a closer look

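Of the 10 transporters, 3 had log2F.C. of opposite sign, both beyond 0.2, between days or tissues, and none of these differences was tested. How many of all genes meet this rule was not computed, so the count of 3 has no background beside it. At 10 days the limit was passed upward by 23.7% (roots) and 24.2% (shoots) of all genes, and downward by 22.3% and 21.7%. For shoots at 3 days these shares were 13.1% and 12.0%. UMAMIT18 in shoots had -0.22 at 3 days and 0.24 at 10 days, a difference of 0.46. AAP6 at 10 days had -0.42 in roots and 0.27 in shoots, a difference of 0.69. PROT2 at 10 days had -0.24 in roots and 0.34 in shoots, a difference of 0.58. The root value of PROT2 (± 0.056) and both values of UMAMIT18 (± 0.063 and ± 0.073) passed 0.2 by less than 1 counting error. The root and shoot tables were normalized separately, which bears on the AAP6 and PROT2 differences.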

How the results depend on the processing

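No paired analysis was possible because the 3 columns of a group hold the same value. For that reason limma, the replicate block and leaving out replicates were not run, and with no near-identical copies found, summing over copies was not run. Quantile normalization left 60 of 60 log2 differences of the 10 transporters within their 95% counting interval. With 1 CPM added 58 of 60 stayed within it, and with scaling to 1 median 57 of 60. In these settings 0 values beyond a limit reversed. A mean of at least 1 CPM leaves genes out and changes no value. Its 57 of 57 was therefore fixed beforehand and says nothing on how far the values hold. Scaling to 1 median gave 2 lower in shoots at 10 days, with AAP1 at -0.22. UMAMIT11 in shoots at 3 days passed the limit under quantile normalization and under scaling to 1 median (-0.20 and -0.21). With 1 CPM added, 0 were lower with age in Ctrl shoots (UMAMIT14 -0.77), and UMAMIT14 in Ti-treated shoots at 3 days was -0.40. With a mean of at least 1 CPM, UMAMIT14 left the shoot table, so that 1 was lower in Ti-treated shoots at 3 days and 0 with age in Ctrl shoots. At a limit of 0.5, 0 were higher in roots at 3 days and 0 lower in roots at 10 days (with CAT2, UMAMIT14 and UMAMIT29 still higher). In shoots 1 was lower at 3 days, and 0 were higher and 0 lower at 10 days. The shares of all genes beyond 0.5 were not computed, so these counts have no background beside them. No scaling moved the median of all genes by more than 0.1. With 1 value per group, variation between samples is unknown, and the counting errors are lower bounds that rest on an assumed prior count.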

Other observations

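The GDU genes encode small membrane proteins that promote amino acid export, and they were singled out from 8 families after their values were seen. Of 6 GDU genes 4 were lower and 1 higher beyond 0.2 in Ti-treated shoots at 3 days (median log2F.C. -0.27), where 12.0% of all genes were lower, and 3 were lower and 0 higher in Ti-treated roots at 10 days (median -0.20), where 22.3% of all genes were lower. In shoots at 10 days 1 was higher and 1 lower, and in roots at 3 days 1 was higher and 0 lower. Of 30 UMAMIT genes other than the 4 described, 9 lay above and 9 below the limit in Ti-treated roots at 10 days, against 23.7% and 22.3% of all genes. Of 29 in Ti-treated shoots at 10 days 5 were higher and 10 lower, against 24.2% and 21.7%. These counts were read after the values had been seen and carry no test.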
